A study of Homo sapiens with 9 samples.

Results

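Transcripts of 10 very long coiled-coil proteins of the Golgi apparatus and the centrosome were followed across 3 groups of HaCaT cells, which are human keratinocytes of the epidermis that grow without limit in culture. The genes were AKAP9, TRIP11, GOLGA3, GOLGA4, GOLGB1, GCC2, CCDC88A, CEP290, NIN and PCNT, taken by symbol from 20263 deposited gene identifiers. All 10 passed the filter on low counts, as did 13912 genes in all. The list was drawn up around AKAP9 and TRIP11 because both had much lower counts in melanosome-laden cells than in control cells. The values of that comparison are therefore given as a description without a test, and the same holds for glabridin against control, which uses the same control libraries. The comparison that is tested, glabridin against melanosome, still shares the melanosome libraries with the choice of the list.

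Poly(A) RNA was sequenced in 9 libraries, 3 to a group. The glabridin group held melanosome-laden HaCaT cells that had also received glabridin, a plant isoflavan of licorice. The melanosome group held HaCaT cells loaded with melanosomes but not given glabridin. Melanosomes are pigment organelles made by melanocytes and handed over to keratinocytes. The control group held HaCaT cells labelled as wild type and blank. By the labels, all groups are thus the same line, and no allele separates them. Levels of melanocyte markers differed widely between control and the other groups, as given below. The labels state no dose, no exposure time and no origin for the melanosomes. They also leave unsaid whether the replicates of a group were separate cultures, so each p-value below rests on a spread between libraries that may be technical.

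Golgins are rod-like proteins that stand out from Golgi membranes and catch passing vesicles, and several of them are held on the membrane by small GTPases of the ARF, ARL and RAB families. AKAP9 and pericentrin are scaffolds that hold protein kinase A and microtubule-nucleating complexes at the Golgi and the centrosome. In epidermal keratinocytes, centrosomal proteins such as ninein are known for moving from the centrosome to the cell cortex when the cells differentiate, and microtubule motors carry melanosomes to a cap over the nucleus.

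The 10 genes share transcript size. By the length that the deposited counts and FPKM imply, they ran from 7950 bases for GOLGA4 to 15251 bases for AKAP9, so that they were longer than 87.5% to 98.7% of the genes tested. Base composition split them. GC content of the longest GENCODE release 29 transcript was between 35.9% for CEP290 and 42.2% for NIN in 8 of them, against 54.0% in GOLGA3 and 56.0% in PCNT.

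Promoter sequences are shown for the pair of genes that led to the list, for GOLGA3, which moved differently from the rest, and for GOLGB1, the most abundant per length in control cells. Each is 5′ to 3′ on the gene's strand from 250 bases before an annotated start to 50 bases after it, from RefSeq on GRCh38.p14. The AKAP9 window is chr7:91940612-91940911 (+ strand), that of TRIP11 chr14:92040010-92040309 (− strand), that of GOLGA3 chr12:132828820-132829119 (− strand) and that of GOLGB1 chr3:121749692-121749991 (− strand). Capitals in GOLGA3 mark GCCACGT, which reads ACGTGGC on the other strand, the Golgi stress response element. GOLGA3 had 3 windows, and only the window with this match is shown. Capitals in GOLGB1 mark ATTGG, which reads CCAAT on the other strand.
AKAP9: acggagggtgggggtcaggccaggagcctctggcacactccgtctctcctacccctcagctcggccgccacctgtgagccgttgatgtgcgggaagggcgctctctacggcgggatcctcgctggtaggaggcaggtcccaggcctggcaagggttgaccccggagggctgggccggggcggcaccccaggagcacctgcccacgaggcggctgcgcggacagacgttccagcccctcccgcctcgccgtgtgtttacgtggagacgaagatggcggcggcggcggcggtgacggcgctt
TRIP11: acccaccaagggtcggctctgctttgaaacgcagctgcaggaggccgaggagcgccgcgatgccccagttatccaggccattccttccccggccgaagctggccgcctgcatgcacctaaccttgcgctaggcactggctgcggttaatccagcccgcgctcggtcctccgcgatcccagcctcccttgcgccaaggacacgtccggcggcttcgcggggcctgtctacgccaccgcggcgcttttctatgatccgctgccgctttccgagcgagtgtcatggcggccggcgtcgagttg
GOLGA3: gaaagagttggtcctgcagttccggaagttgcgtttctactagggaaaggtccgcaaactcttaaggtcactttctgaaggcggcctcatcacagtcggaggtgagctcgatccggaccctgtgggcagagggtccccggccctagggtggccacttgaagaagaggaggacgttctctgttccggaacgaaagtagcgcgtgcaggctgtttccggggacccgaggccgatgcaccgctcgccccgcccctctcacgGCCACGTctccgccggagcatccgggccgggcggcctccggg
GOLGB1: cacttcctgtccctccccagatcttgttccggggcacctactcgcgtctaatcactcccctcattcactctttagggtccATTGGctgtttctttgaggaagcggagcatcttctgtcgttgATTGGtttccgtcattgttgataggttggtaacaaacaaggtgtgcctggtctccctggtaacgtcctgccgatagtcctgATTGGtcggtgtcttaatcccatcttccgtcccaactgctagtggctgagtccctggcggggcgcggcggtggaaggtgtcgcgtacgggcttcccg

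Of the 10 genes, 9 had a promoter entry in RefSeq, with 13 windows between them. GOLGA4 had none. Windows were searched on both strands for 7 motifs, and the shares that follow are over 35116 windows of the same length. ACGTGGC was in 3.22% of all windows and, among the 13, in the GOLGA3 window shown, starting at base 9 after the start. It was not in the other GOLGA3 windows. TGACGTGG, the ATF6 element, was in 0.729% of all windows and in a second AKAP9 window, which lies inside the gene and starts the match 146 bases upstream of that start (-146). It shares a core of 6 letters with the Golgi stress response element, so the motifs can overlap. The CCAAT box was in 34.6% of all windows and in 5 of the 13, from 4 genes, with matches in GOLGB1 at -170, -128 and -47. TGACGTCA (cAMP response element, 1.85% of all windows), TTGCATCA (C/EBP-ATF composite element, 0.866%) and TCACGTGA (E-box of MiT/TFE factors, 0.98%) were not among the letters of the 13 windows, and nor was the longer ER stress response element, which begins with CCAAT and was in 0.0769% of all windows. A match is a description of the letters and not a site of binding.

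Library totals ran from 39653425 to 46690787 counts, and the 10 genes held between 60 and 4268 counts each in a library. Levels below are CPM, counts divided by library sizes that were scaled by TMM. All 18 keratinocyte markers searched had counts in every group, with summed levels of 13075 to 15926 CPM in glabridin libraries, 15135 to 16180 CPM in melanosome libraries and 19161 to 19378 CPM in control libraries. The 22 melanocyte markers summed to 2237 to 3998 CPM in glabridin libraries, 3607 to 3725 CPM in melanosome libraries and 214 to 223.8 CPM in control libraries, where TYR, TRPM1, OCA2, KIT, MLPH, S100B and PAX3 were at 0 counts. The 10 fibroblast markers summed to 14.0 to 15.5 CPM in glabridin libraries, 19.7 to 20.8 CPM in melanosome libraries and 45 to 47.7 CPM in control libraries, where PDGFRB was at 0 counts. The part of this RNA from another cell type in the values below was not tested. In bulk RNA, fewer cells of a type and less RNA per cell cannot be told apart.

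Across the 3 groups the main pattern was a low level of 9 of the 10 transcripts in both melanosome-laden groups and a separate course for GOLGA3. In glabridin libraries GOLGA3, which codes for a golgin of the Golgi stack, stood at 2.61-fold its level in melanosome libraries. By edgeR's quasi-likelihood test with Benjamini-Hochberg adjustment over all genes, 1 of the 10 genes was higher with glabridin at an adjusted p under 0.05, against 23.7% of all genes tested. None was lower (0 of 10), against 20.2% of all genes. At an unadjusted p under 0.05 these counts were 2 higher and 0 lower. Shares over all genes were not taken at that threshold, for these genes or for the lists below. DESeq2 and limma on log2(TPM + 1) each called 1 gene lower, which was GCC2 in both, and limma on log2(TPM + 0.1) called 0 lower. In melanosome against control, all 10 genes had every melanosome library below every control library, and 7 were at least 2-fold lower. Over all genes these shares were 41.1% and 6.1%, and nothing is read from them because the list was chosen on this comparison. In glabridin against control, 9 of the 10 genes had every glabridin library lower (34.4% of all genes), 7 were at least 2-fold lower (11.8%) and GOLGA3 had every library higher (38.7%), again as a description.

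**Figure D1:**
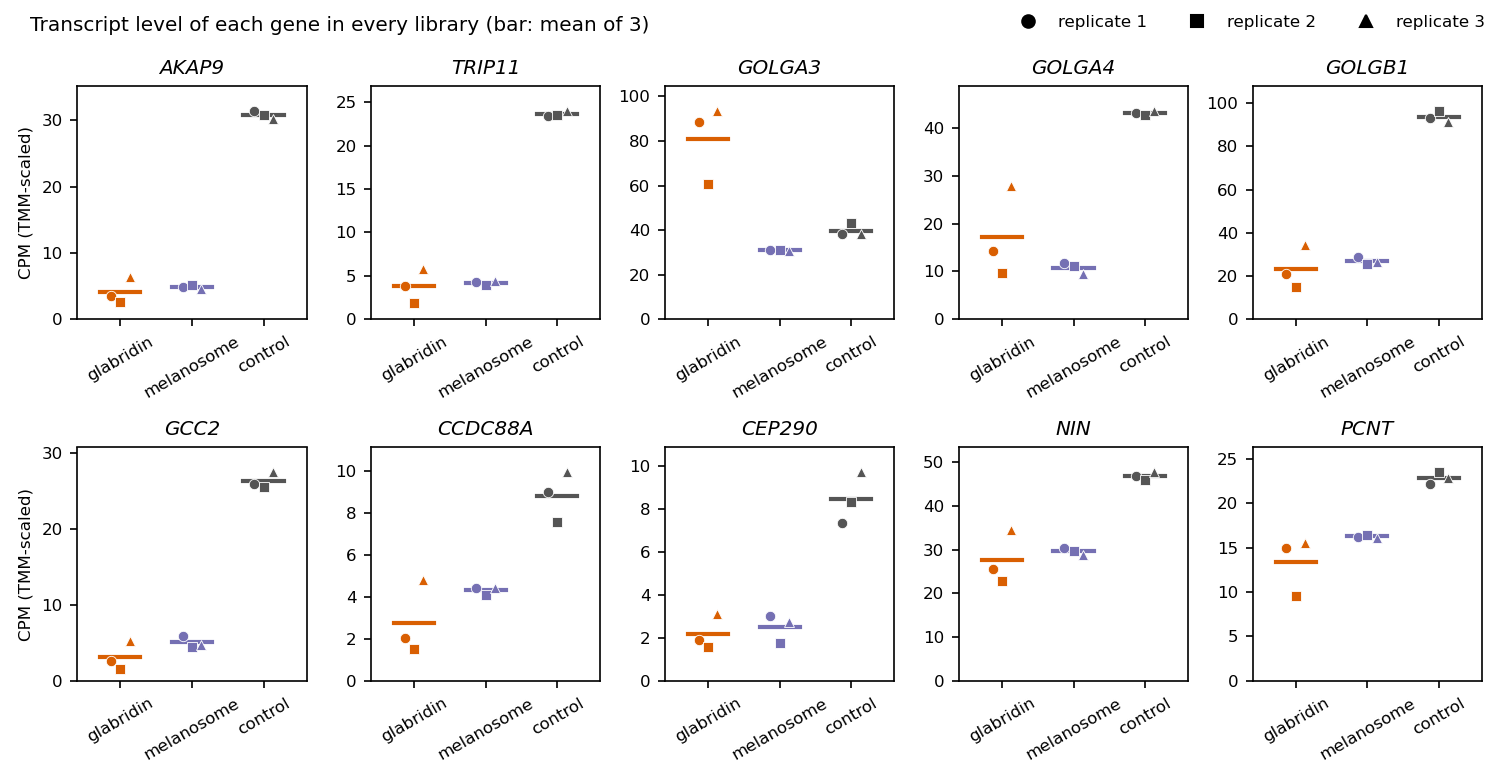
Level of each of the 10 genes in CPM on TMM-scaled library sizes (vertical axes, each from 0) in the glabridin, melanosome and control groups (horizontal axes), with a point per library shaped by replicate number and a bar at the mean of 3 libraries. For 9 genes the control libraries lie above both other groups, while for GOLGA3 the glabridin libraries, at 60.9 to 93.5 CPM, lie above all others.

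AKAP9 (chr7:91940867-92110673, + strand, 50 exons in the longest transcript), a scaffold that ties protein kinase A and microtubule nucleation to the Golgi and the centrosome, had 3.46, 2.54 and 6.31 CPM in glabridin libraries 1 to 3. It had 4.92, 5.11 and 4.64 CPM in melanosome libraries and 31.4, 30.9 and 30.3 CPM in control libraries. The glabridin libraries lay on both sides of the melanosome libraries, and every control library was above all others. The difference between glabridin and melanosome was −0.25 ± 0.25 on the log2 scale (SE, 95% interval −0.80 to 0.31, adjusted p 0.459 by edgeR). Without glabridin replicate 3 it was −0.70 with an adjusted p of 8.87e-04, and without glabridin replicate 2 it was 0.00138 with an adjusted p of 0.995. Melanosome minus control was −2.66 ± 0.25, a level 6.31-fold lower, and glabridin minus control was −2.90 ± 0.25.

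TRIP11 (chr14:91965991-92040896, − strand, 21 exons) codes for a golgin of the cis-Golgi that captures vesicles and holds the transport protein IFT20 at the Golgi. Its levels were 3.84, 1.88 and 5.76 CPM in glabridin libraries, 4.24, 3.94 and 4.42 CPM in melanosome libraries and 23.4, 23.5 and 24.0 CPM in control libraries. As for AKAP9, the glabridin values straddled the melanosome values and the control values stood apart above them. Glabridin minus melanosome was −0.13 ± 0.28 (95% interval −0.76 to 0.50, adjusted p 0.751 by edgeR). The value was −0.54 without glabridin replicate 3 (adjusted p 0.0473) and 0.192 without glabridin replicate 2 (adjusted p 0.301). Against control, the melanosome group was at −2.49 ± 0.28, or 5.62-fold lower, and glabridin minus control was −2.62 ± 0.28.

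GOLGA3 (chr12:132768909-132828858, − strand, 24 exons) had 88.8, 60.9 and 93.5 CPM in glabridin libraries, 31.3, 31.1 and 30.8 CPM in melanosome libraries and 38.1, 43.3 and 38.2 CPM in control libraries. The 3 groups did not overlap, with glabridin highest and melanosome lowest. Glabridin minus melanosome was 1.38 ± 0.14 (95% interval 1.08 to 1.69, adjusted p 2.44e-05 by edgeR), and every glabridin library was higher, as in 26% of all genes tested. The gene was called under each of 23 alternative settings, at 1.09 to 1.55. The melanosome group differed from control by −0.36 ± 0.14, and glabridin minus control was 1.02 ± 0.14, or 2.03-fold higher. GOLGA3 overlaps CHFR on the same strand, and CHFR differed by 0.11 ± 0.08 between glabridin and melanosome (adjusted p 0.291 by edgeR).

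GOLGA4 (chr3:37243177-37366751, + strand, 24 exons) and GCC2 (chr2:108448561-108509415, + strand, 23 exons) are golgins of the trans-Golgi that end in a GRIP domain, the part through which small GTPases recruit them. GOLGA4 had 14.3, 9.67 and 27.9 CPM in glabridin libraries, 11.7, 11.2 and 9.39 CPM in melanosome libraries and 43.0, 42.8 and 43.5 CPM in control libraries. GCC2 had 2.67, 1.51 and 5.21 CPM in glabridin libraries, 5.89, 4.50 and 4.78 CPM in melanosome libraries and 25.9, 25.6 and 27.4 CPM in control libraries. For both genes glabridin overlapped melanosome and control lay above, but the estimates pointed in opposite directions. Glabridin minus melanosome was 0.68 ± 0.30 for GOLGA4 (95% interval 0.03 to 1.34, adjusted p 0.0847 by edgeR) and −0.68 ± 0.32 for GCC2 (95% interval −1.39 to 0.03, adjusted p 0.110 by edgeR). Without glabridin replicate 2, GOLGA4 was at 0.97 with an adjusted p of 0.00184 and GCC2 at −0.36 with an adjusted p of 0.182. Without glabridin replicate 3, GOLGA4 was at 0.155 with an adjusted p of 0.390 and GCC2 at −1.26 with an adjusted p of 1.90e-04. Melanosome minus control was −2.0 ± 0.30 for GOLGA4 and −2.38 ± 0.31 for GCC2. Glabridin minus control was −1.32 ± 0.29 for GOLGA4 and −3.06 ± 0.32 for GCC2, the lowest value of the 10 genes in that comparison. GCC2 shares near-identical sequence with the RGPD genes, so its count is uncertain to the extent that reads were split. No RGPD gene in the table exceeded 63 counts in a library. In glabridin replicate 2, however, GCC2 itself had only 60 counts, beside 47 for RGPD8 and 15 for RGPD5.

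GOLGB1 (chr3:121663199-121749767, − strand, 22 exons) codes for giantin, the largest golgin, which is anchored in the Golgi membrane by its own transmembrane end. It had 21.1, 14.8 and 34.2 CPM in glabridin libraries, 28.7, 25.6 and 26.7 CPM in melanosome libraries and 93.4, 96.4 and 91.3 CPM in control libraries. Control again stood alone, and the glabridin libraries lay on both sides of the melanosome libraries. Glabridin minus melanosome was −0.20 ± 0.23 (95% interval −0.70 to 0.29, adjusted p 0.491 by edgeR). This was −0.59 without glabridin replicate 3 (adjusted p 0.00124) and 0.0359 without glabridin replicate 2 (adjusted p 0.854). The difference of melanosome from control was −1.80 ± 0.23, and glabridin minus control was −2.0 ± 0.23.

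CCDC88A (chr2:55287842-55419895, − strand, 33 exons) codes for girdin, which binds actin and modulates heterotrimeric G proteins. Its levels were 2.04, 1.51 and 4.77 CPM in glabridin libraries, 4.42, 4.10 and 4.44 CPM in melanosome libraries and 8.98, 7.55 and 9.92 CPM in control libraries. Glabridin replicates 1 and 2 were below all melanosome libraries and replicate 3 was above them. Glabridin minus melanosome was −0.63 ± 0.33 (95% interval −1.35 to 0.10, adjusted p 0.145 by edgeR), −1.28 without glabridin replicate 3 (adjusted p 7.99e-05) and −0.34 without glabridin replicate 2 (adjusted p 0.296). Melanosome minus control was −1.03 ± 0.31 and glabridin minus control was −1.66 ± 0.32.

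The 3 genes of the centrosome and cilium differed from control by different amounts. CEP290 (chr12:88049014-88142216, − strand, 54 exons), a protein of the ciliary transition zone and of centriolar satellites, had 1.91, 1.56 and 3.09 CPM in glabridin libraries, 3.02, 1.76 and 2.75 CPM in melanosome libraries and 7.35, 8.32 and 9.69 CPM in control libraries. NIN (chr14:50719763-50831121, − strand, 31 exons) codes for ninein, which anchors microtubule minus ends at the subdistal appendages of the mother centriole, and had 25.5, 22.9 and 34.5 CPM in glabridin libraries, 30.4, 29.8 and 28.8 CPM in melanosome libraries and 46.9, 45.8 and 47.6 CPM in control libraries. PCNT (chr21:46324122-46445769, + strand, 47 exons) codes for pericentrin, the scaffold of the pericentriolar material, and had 14.9, 9.55 and 15.6 CPM in glabridin libraries, 16.2, 16.4 and 16.1 CPM in melanosome libraries and 22.2, 23.5 and 22.8 CPM in control libraries. CEP290 and NIN overlapped between glabridin and melanosome, whereas every glabridin library was below every melanosome library for PCNT, as in 24.2% of all genes tested.

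Glabridin minus melanosome was −0.20 ± 0.27 for CEP290 (95% interval −0.79 to 0.39, adjusted p 0.573), −0.10 ± 0.13 for NIN (−0.39 to 0.18, adjusted p 0.548) and −0.28 ± 0.15 for PCNT (−0.62 to 0.05, adjusted p 0.157), all by edgeR. None of the 3 was called. Without glabridin replicate 3, NIN was at −0.29 (adjusted p 0.00643) and PCNT at −0.41 (adjusted p 0.0323), while CEP290 was at −0.54 (adjusted p 0.0745). Without glabridin replicate 2, NIN was at 0.0166 (adjusted p 0.906), PCNT at −0.0939 (adjusted p 0.334) and CEP290 at −0.0163 (adjusted p 0.962). PCNT was called lower with upper-quartile factors, at −0.40, and without scaling factors, at −0.46. Melanosome minus control was −1.74 ± 0.25 for CEP290, −0.66 ± 0.13 for NIN and −0.49 ± 0.15 for PCNT. Glabridin minus control was −1.94 ± 0.26 for CEP290, −0.76 ± 0.13 for NIN and −0.77 ± 0.15 for PCNT. CEP290 overlaps C12orf29 on the opposite strand, and the counting's use of strand is not given in the sources used here, so reads of this pair cannot be told apart. C12orf29 differed by 0.35 ± 0.12 between glabridin and melanosome (adjusted p 0.0374 by edgeR). GOLGA4, GCC2, CCDC88A and NIN each overlap an annotated antisense gene that was not analysed here.

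**Figure D2:**
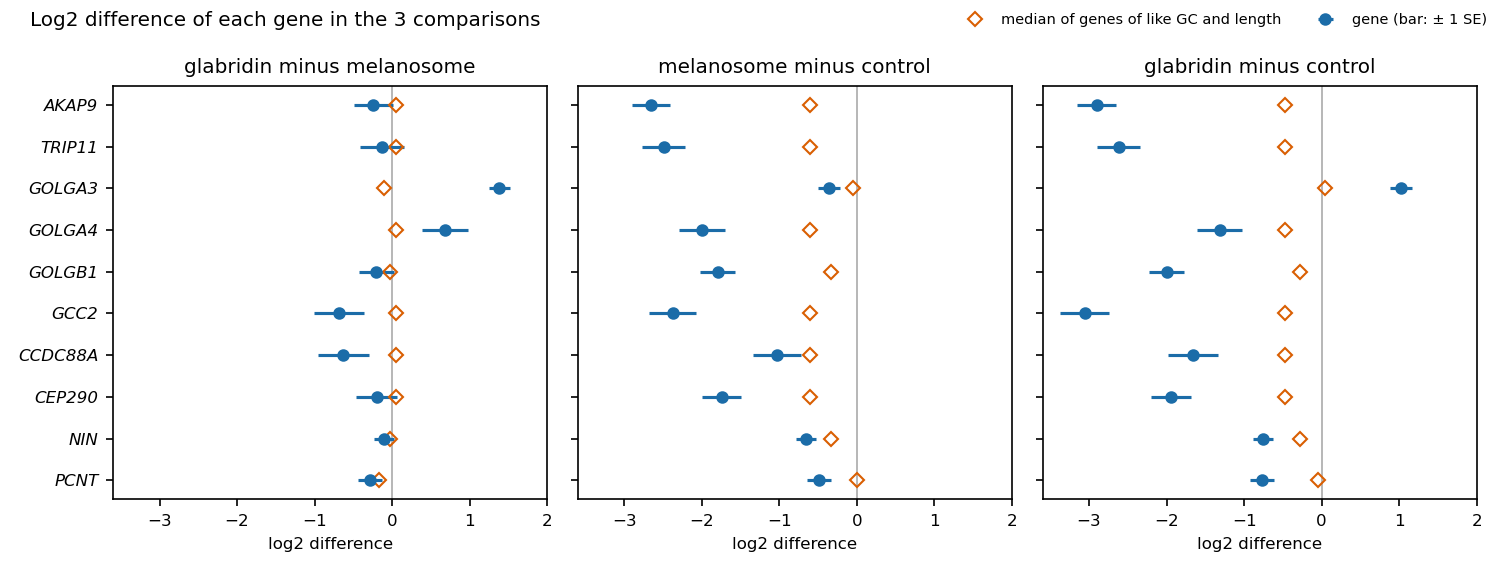
Log2 difference of each of the 10 genes (filled circles, bars ± 1 SE from the edgeR fit) in 3 panels, glabridin minus melanosome, melanosome minus control and glabridin minus control, beside the median of all tested genes in the same class of GC content and transcript length (open diamonds). GOLGA3 is at 1.38 in the first panel, where the other 9 genes lie between −0.68 and 0.68, and AKAP9 is the lowest gene of the middle panel at −2.66.

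Per unit length the order of the 10 transcripts changed between groups. In the deposited TPM values, glabridin libraries had GOLGA3 first at 20.5 ± 5.36 TPM (SD, n = 3), whose range did not touch the next. NIN at 6.31 ± 1.72 TPM, GOLGA4 at 5.75 ± 3.44 TPM, GOLGB1 at 5.30 ± 2.52 TPM and PCNT at 3.31 ± 0.941 TPM overlapped from neighbour to neighbour. A gap followed, and TRIP11, GCC2, AKAP9, CCDC88A and CEP290 lay between 0.997 ± 0.555 and 0.557 ± 0.227 TPM, each overlapping its neighbour. In melanosome libraries GOLGA3 was also first, at 8.86 ± 0.321 TPM, ahead of NIN at 7.64 ± 0.419 TPM, which overlapped GOLGB1 at 6.87 ± 0.601 TPM, and CEP290 was last at 0.710 ± 0.200 TPM. In control libraries the order began with GOLGB1 at 21.0 ± 0.632 TPM and GOLGA4 at 14.1 ± 0.187 TPM. NIN at 10.6 ± 0.204 TPM and GOLGA3 at 10.0 ± 0.809 TPM overlapped there, as did CEP290 at 2.11 ± 0.306 TPM and CCDC88A at 2.03 ± 0.280 TPM at the low end.

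Summed CPM of the 10 genes was 178.7 ± 52.0 in glabridin libraries, 135.7 ± 4.42 in melanosome libraries and 344.4 ± 3.47 in control libraries (SD, n = 3 each). GOLGA3 made up 46.1 ± 4.93% of that sum in glabridin libraries, 22.9 ± 0.599% in melanosome libraries and 11.6 ± 0.765% in control libraries. The groups did not overlap in this share.

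The 3 glabridin libraries differed far more from each other than those of the other groups did. The SD as a share of the mean was 21.7% to 63.1% over the 10 genes in glabridin libraries, 0.707% to 26.5% in melanosome libraries and 0.902% to 13.9% in control libraries, and for each of the 10 genes it was highest in the glabridin group. Glabridin replicate 3 was highest, replicate 1 in the middle and replicate 2 lowest for all 10 genes, an order that 30.6% of all genes tested had. Replicate 3 exceeded replicate 2 between 1.51-fold for NIN and 3.46-fold for GCC2. Leaving out glabridin replicate 3, 7 of the 10 genes were called lower with glabridin than in melanosome libraries (AKAP9, TRIP11, GOLGB1, GCC2, CCDC88A, NIN and PCNT), against 24% of all genes under that setting. Leaving out glabridin replicate 2, 0 of the 10 were called lower, against 24% of all genes, and GOLGA3 and GOLGA4 were called higher, against 28.1%. GOLGA3 was called with either library left out, at 1.55 without replicate 2 and at 1.27 without replicate 3, where 25.4% of all genes were called higher.

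Other long transcripts of low GC content showed the same order of glabridin libraries on a smaller scale. The deviation of each gene's log2 CPM from its own mean over the 9 libraries was taken, with the median over genes. For the 8 genes with a GC content up to 45%, it was −0.86, −1.46 and −0.17 in glabridin replicates 1, 2 and 3, between −0.68 and −0.35 in melanosome libraries and between 1.22 and 1.35 in control libraries. For 1312 other genes with transcripts over 7000 bases and GC up to 45%, it was −0.18, −0.36 and 0.17 in the glabridin replicates, between −0.22 and −0.07 in melanosome libraries and between 0.27 and 0.31 in control libraries. For 637 other genes as long but with GC over 50%, all 9 medians lay between −0.0603 and 0.0828. The part of RNA quality or library preparation in this was not tested.

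**Figure D3:**
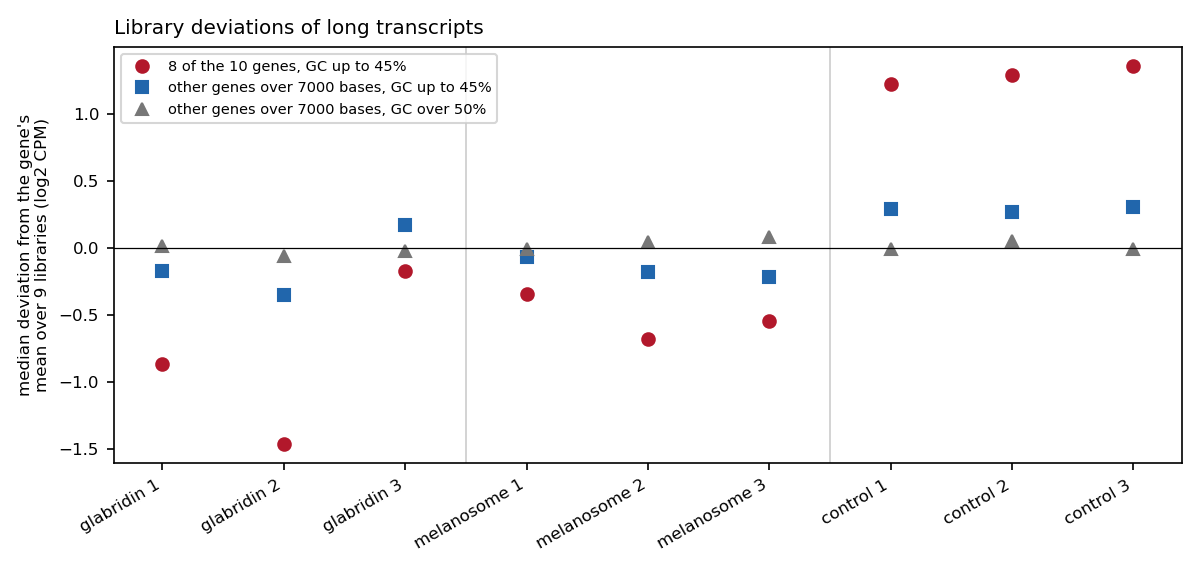
Median deviation of log2 CPM from each gene's mean over 9 libraries (vertical axis) in each library (horizontal axis, glabridin, melanosome and control), for 8 of the 10 genes, for 1312 other genes of transcripts over 7000 bases with GC up to 45% and for 637 such genes with GC over 50%. Both sets of low GC content are lowest in glabridin replicate 2 and highest in the control libraries, and the set of high GC content stays near 0.

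Length and base composition also ran with the difference between melanosome and control libraries over all genes. Genes with a transcript GC content up to 40% had a median of −0.45 in that comparison, and genes with GC over 55% a median of 0.12. Genes with transcripts over 7000 bases had a median of −0.29, and those up to 2000 bases a median of 0.09. Across 13907 genes Spearman's rho was 0.298 with GC content and −0.174 with length. Across the 10 genes, Pearson's r was 0.743 and Spearman's rho 0.612 with GC content, and r was −0.0234 and rho 0.0667 with length. Leaving out GOLGA3 and PCNT, the pair farthest from the median GC content, r with GC content was 0.408 over 8 genes. All points of these relations come from the same libraries, and genes are not independent replicates.

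Set beside genes of their own class, the 10 genes were not all alike. The median of the 641 genes with GC up to 40% and transcripts over 7000 bases was −0.60 in melanosome minus control. AKAP9 was the lowest of that class, with 0 genes below it, while 2 genes were below TRIP11, 7 below GCC2, 14 below GOLGA4, 18 below CEP290 and 134 below CCDC88A. Of 679 genes with GC between 40% and 45%, 8 were below GOLGB1 and 175 below NIN. GOLGA3 had 69 of 325 genes of its class below it and PCNT 54 of 314. With an offset for GC content and length in each library, melanosome minus control was −2.05 for AKAP9, −1.92 for TRIP11, −1.93 for GCC2, −1.62 for GOLGA4, −1.48 for GOLGB1, −1.08 for CEP290, −0.60 for PCNT, −0.47 for GOLGA3, −0.45 for CCDC88A and −0.35 for NIN. All 10 kept a negative sign in that setting. The list was chosen on this comparison, and the classes include the listed genes themselves. Nothing is therefore read from these ranks or signs.

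In glabridin minus melanosome, Spearman's rho across 13907 genes was −0.0188 with GC content and −0.114 with length. Genes with a GC content up to 40% had a median of 0.06 there and those with GC over 55% a median of 0.03, while the median was −0.06 for transcripts over 7000 bases and 0.13 for those up to 2000 bases. The medians of the classes that hold the 10 genes lay between −0.17 and 0.06. In its class of 325 genes with GC between 50% and 55% and transcripts over 7000 bases, GOLGA3 was above 323. With the GC and length offset GOLGA3 was at 1.47, and GOLGA4 at 0.64, GCC2 at −0.71 and CCDC88A at −0.67 were then called as well. Shares over all genes called higher or lower were not taken with this offset.

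**Figure D4:**
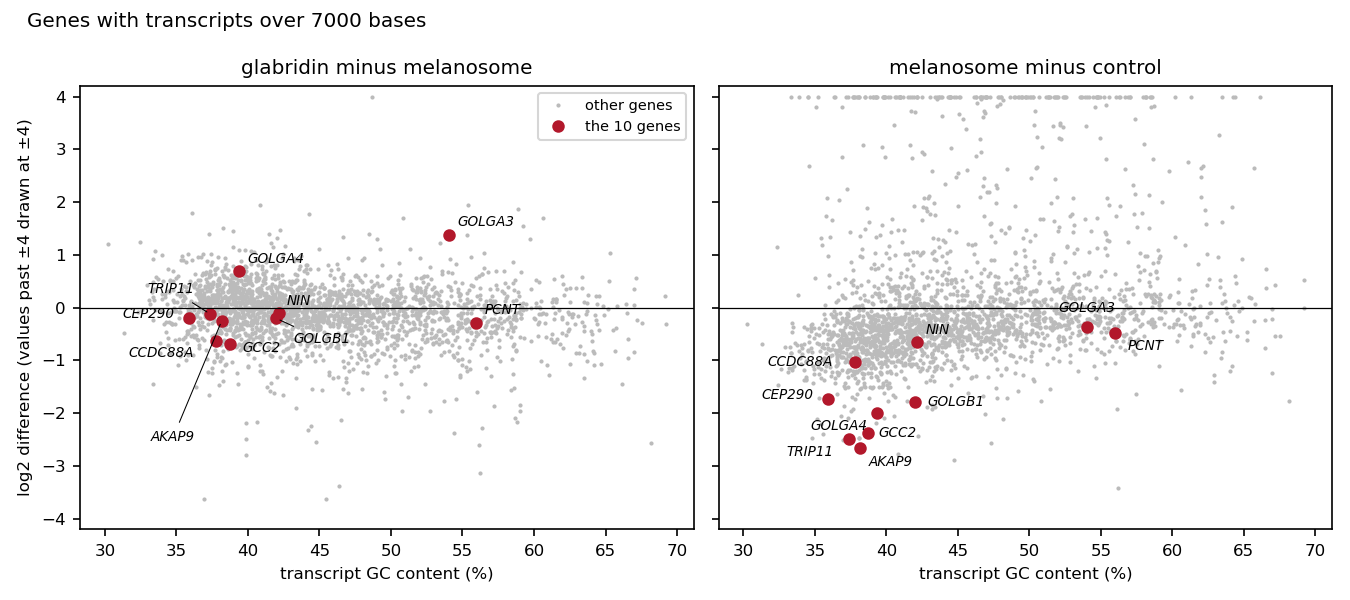
Log2 difference (vertical axis, values past ±4 drawn at ±4) against transcript GC content in percent (horizontal axis) for genes with transcripts over 7000 bases, in glabridin minus melanosome (left) and melanosome minus control (right), with the 10 genes named. On the right, the low-GC genes reach down to AKAP9 at −2.66, and on the left GOLGA3 stands at 1.38 with a GC content of 54.0%.

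The 10 genes were also compared by their course over the 9 libraries. Pearson's r between a gene's log2 CPM and the mean of the other 9 was at least 0.902 for 9 genes, with the highest value of 0.996 for GOLGB1, and it was −0.286 for GOLGA3. Among 9253 other genes with a mean log2 CPM of at least 3, the 8 most like the mean of the 10 were USP47 (r 0.998), USP34, NCOA2, RB1CC1, BAZ2B, NIPBL, EGFR and JMJD1C (r 0.997). All 8 have transcripts over 7000 bases, as do 2409 of the 13912 genes tested. Their glabridin minus melanosome differences lay between −0.13 for RB1CC1 and 0.08 for NIPBL. The 9 libraries fall into control against the rest, so a high r largely states that split.

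Genes around the 10 were read from lists, beside shares of 23.7% higher and 20.2% lower and a median of 0.01 over all genes in glabridin minus melanosome. Of 20 other golgins and Golgi matrix proteins, 12 were higher with glabridin and 0 lower, and the median was 0.60. At an unadjusted p under 0.05 the counts were 13 higher and 0 lower, with DESeq2 they were 12 and 0, and with limma on log2(TPM + 1) 10 and 1. Without glabridin replicate 3 they were 12 and 2, and without scaling factors 10 and 1. Those called included GOLGA2, GOLGA5, GCC1, USO1, GORASP2 and GOLPH3, named after their values were seen apart from GOLGA2. GOLGA2, the cis-Golgi matrix protein that recruits AKAP9, was at 505.1, 457.7 and 497.8 CPM in glabridin libraries, 241.8, 255.5 and 263.2 CPM in melanosome libraries and 255.3, 269.4 and 261.6 CPM in control libraries. Its difference was 0.94 ± 0.06 (adjusted p 9.72e-07 by edgeR), and the glabridin libraries stood apart from both other groups.

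Of 30 proteins listed around golgin recruitment and vesicle tethering, 14 were higher and 2 lower, with a median of 0.16. The list also held membrane fusion proteins such as STX5 and the cargo proteins IGF2R, M6PR and TGOLN2. TGOLN2, at −0.14, was 1 of the 2 called lower. ARF4, a small GTPase of the early Golgi, was at 842 ± 138 CPM in glabridin libraries, 193 ± 20.8 CPM in melanosome libraries and 166 ± 8.19 CPM in control libraries, and rose by 2.12 ± 0.12 with glabridin (adjusted p 4.45e-07 by edgeR). ARL1, the GTPase that binds the GRIP domain, rose by 0.76 ± 0.14 (adjusted p 0.00118 by edgeR, named after its value was seen). COG8, a subunit of the tethering complex COG, fell by 0.60 on the log2 scale (SE 0.12, adjusted p 0.00182 by edgeR), while its partners COG1, COG3, COG5 and COG6, named after their values were seen, rose. The other subunits were not called, with COG2 at −0.16, COG7 at −0.14 and COG4 at 0.03. With RLE factors 14 of the 30 were higher and 4 lower, and without scaling factors 13 were higher and 9 lower. That setting moved the median of all genes to −0.17 in glabridin minus melanosome and the counts over all genes to 1872 higher and 4573 lower, against 3301 and 2810 with TMM.

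Of 48 centrosomal proteins, 5 were higher and 14 lower with glabridin, with a median of −0.02. Without glabridin replicate 2 the counts were 11 and 14. PDE4DIP, a paralogue of CDK5RAP2 that works with AKAP9 at the Golgi, rose by 1.14 ± 0.07 (adjusted p 6.22e-07 by edgeR), with 116 ± 5.42 CPM in glabridin libraries, 52.5 ± 1.87 CPM in melanosome libraries and 38.9 ± 2.06 CPM in control libraries. CROCC, which builds the ciliary rootlet, fell by 0.88 (SE 0.09, adjusted p 2.36e-05 by edgeR). Of 42 proteins of the cilium, 9 were higher and 4 lower, and without scaling factors 6 were higher and 9 lower. The counts were 12 and 6 without glabridin replicate 2, and 10 and 9 without glabridin replicate 3. IFT20, the transport protein bound by TRIP11, rose by 1.05 ± 0.10 (adjusted p 1.38e-05 by edgeR), with 38.6 ± 4.63 CPM in glabridin libraries and 18.6 ± 0.804 CPM in melanosome libraries. IFT172, of the same transport machinery, fell by 0.62 (SE 0.08, adjusted p 1.28e-04 by edgeR).

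Of 19 other A-kinase anchors and subunits or phosphodiesterases of the cyclic AMP pathway, 3 were higher and 3 lower, and without scaling factors 2 were higher and 9 lower. Leaving out glabridin replicate 2 gave 5 higher and 4 lower, and leaving out glabridin replicate 3 gave 2 and 6. AKAP8L, a nuclear anchor, rose by 0.56 ± 0.07 (adjusted p 1.47e-04 by edgeR). AKAP12, a membrane-linked anchor of protein kinases A and C, fell by 0.77 (SE 0.10, adjusted p 1.78e-04 by edgeR). It had 10.8 ± 0.876 CPM in glabridin libraries, 18.5 ± 1.46 CPM in melanosome libraries and only 0.156 ± 0.0226 CPM in control libraries.

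Long genes outside the Golgi and centrosome were read in the same way. Of 50 other long coiled-coil proteins, 2 were higher and 13 lower with glabridin, with a median of −0.19. RRBP1, a ribosome-binding protein of the endoplasmic reticulum, rose by 0.50 ± 0.07 (adjusted p 3.23e-04 by edgeR), and CIT, the citron kinase of cytokinesis, fell by 0.83 (SE 0.09, adjusted p 5.64e-05 by edgeR). Of 45 other long proteins, listed apart from the coiled coils, 3 were higher and 11 lower, with a median of −0.09. Some of them, such as LAMA3, LAMA5 and DYNC1H1, also hold coiled-coil stretches, so structure does not part the lists cleanly. LYST, a regulator of lysosome size, rose by 0.63 ± 0.11 (adjusted p 0.00104 by edgeR), and AHNAK, a giant scaffold at the plasma membrane, fell by 0.56 (SE 0.05, adjusted p 1.07e-05 by edgeR). Without glabridin replicate 3, 2 of the 50 were higher and 26 lower, and 3 of the 45 were higher and 23 lower. Without glabridin replicate 2, 7 of the 50 were higher and 14 lower, and 7 of the 45 were higher and 12 lower. Without scaling factors 1 of the 50 was higher and 19 lower, and 1 of the 45 was higher and 23 lower. In melanosome minus control, given as a description, the medians of these lists were −0.64 for the long coiled coils and −0.53 for the others, against −1.77 for the 10 genes and −0.06 for all genes tested.

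**Figure D5:**
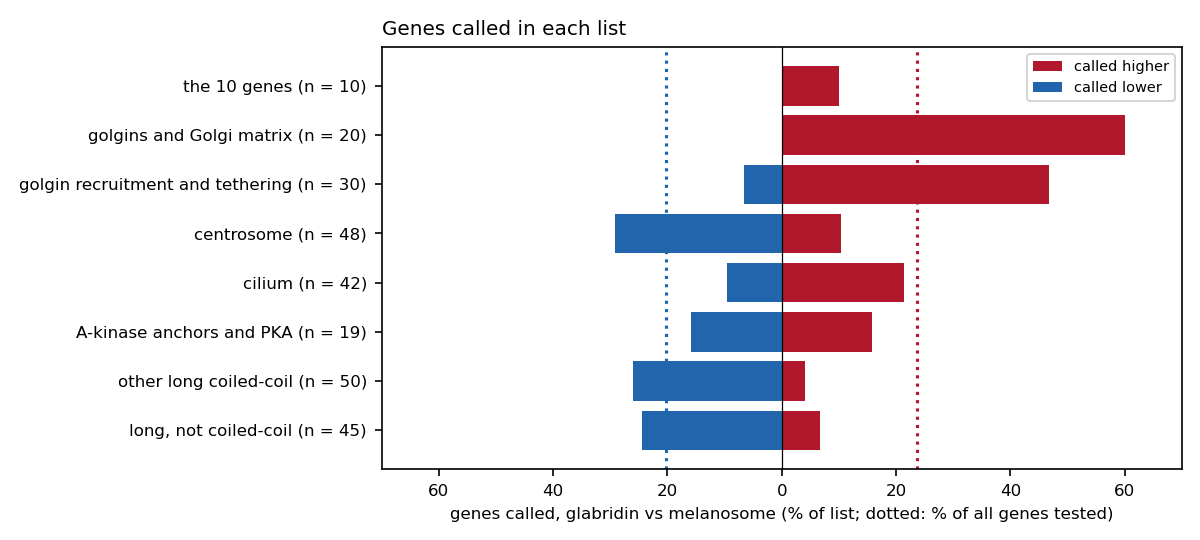
Share of each list called higher (bars to the right) or lower (bars to the left) in glabridin against melanosome, in percent of the genes tested in the list, with dotted lines at the shares over all genes tested. Golgins and the Golgi matrix reach 60% higher and 0 lower, while in both lists of other long genes more were lower than higher. The list labelled as not coiled-coil still holds some proteins with coiled-coil stretches.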

How the data were processed

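Sample titles gave each library's group and replicate number. Raw counts per gene were deposited by the authors, and per the file headers the same table holds TPM and FPKM. TPM in a second deposited table was identical (largest difference 0). FPKM from the authors served only to recover transcript length. The build was hg38 per the submitters' processing notes, and libraries were poly(A)-selected and made with dUTP, per the labels' protocols. No aligner, counting program, use of strand or annotation is given in the sources used here.

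The test was edgeR 4.0.16's quasi-likelihood F-test on counts (R 4.3.3, filterByExpr, TMM factors), with all 9 libraries in a single fit. P-values were adjusted by Benjamini-Hochberg over 13912 genes, with a threshold of 0.05. The fit shares a single estimate of spread per gene over groups of unequal spread. Intervals and p-values of comparisons with glabridin may therefore be too small. With only the 2 groups compared, edgeR called 4970 genes, and GOLGA3 was at 1.36 with an adjusted p of 4.80e-04. Each SE is the absolute log2 difference divided by the square root of F. The script was tested on simulated data. Symbols were matched for 20148 of 20263 identifiers, and positions on GRCh38 came from GENCODE release 29 for 20224. The count of each replicate pair differed by more than sampling noise (chi-square per gene 3.14 to 99.6, highest for glabridin pairs), so all libraries were kept apart. Precision is that of counts of 60 and more per gene.

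The 10 genes and the 10 other lists were chosen with earlier results of these data known. Named besides the 10 genes were the called gene with the smallest p in each direction of each list and the 8 genes most alike over the libraries. Genes that overlap the 10 were named for that reason, and other list members, such as ARL1 and the COG subunits, were named after their values were seen. Alternatives were RLE, upper-quartile or no factors, other filters, DESeq2 1.42.0, limma 3.58.1 on log2 TPM with a pseudocount of 1 or 0.1, only the groups compared, each library left out, a replicate block, offsets for length and GC content, and library sizes without mitochondrial genes. List counts were also taken without glabridin replicate 2 or 3, with RLE factors and with none, settings chosen after seeing the data.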

Additional observations from a re-analysis of the deposited data

How the results depend on the processing

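The call of GOLGA3 held under all 23 alternatives, at 1.09 to 1.55, with adjusted p between 1.39e-19 and 5.63e-04. All genes called ranged from 4838 to 7332, against 6111. The 10 genes called lower were 0 in the fit reported, but 1 with upper-quartile factors, no scaling factors, DESeq2 or limma on log2(TPM + 1), and 2 with the GC and length offset, with or without a replicate block. Genes called higher were 2, against 1, with the length offset and with the GC and length offset. Among the alternatives, shares over all genes by direction were taken only without scaling factors and without glabridin replicate 2 or 3. Leaving out a library at a time gave 0 to 7 lower and 1 to 2 higher. Over libraries left out, AKAP9 ran from −0.70 to 0.00138, TRIP11 from −0.54 to 0.192, GOLGB1 from −0.59 to 0.0359 and NIN from −0.29 to 0.0166, each lowest without glabridin replicate 3 and of the other sign without glabridin replicate 2. The cause was not tested.

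The median of the 10 genes in melanosome minus control, −1.77, was −1.60 without scaling factors, −1.18 and −1.54 with limma at pseudocounts of 1 and 0.1, −1.54 with the length offset, −1.28 with the GC and length offset and −1.28 when a replicate block was added to it. In glabridin minus control, −1.80, it was −1.14 with limma at a pseudocount of 1, −1.22 with the GC and length offset and −1.25 with the block added. Replicate numbers showed no pairing, since deviations of same-numbered libraries correlated at −0.234 to 0.0503. With a replicate block 1 of the 10 genes was called higher and 0 lower, and 5523 genes were called in all. Low levels, such as 60 counts for GCC2 and CCDC88A in glabridin replicate 2, limit what can be seen.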

Other observations

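Markers of the cell types the cultures could hold were read in glabridin against melanosome libraries as well, where 23.7% of all genes tested were higher and 20.2% lower with glabridin, or 13.5% and 32.9% without scaling factors. Of 18 keratinocyte markers, 6 were higher and 3 lower with glabridin by edgeR, and without scaling factors 4 were higher and 9 lower. KRT16, a keratin of activated epidermis, rose by 1.68 ± 0.11 (adjusted p 1.53e-06), with 35.1 ± 2.91 CPM in glabridin libraries, 10.9 ± 0.733 CPM in melanosome libraries and 4.13 ± 0.556 CPM in control libraries. KRT5, a keratin of basal cells, fell by 0.66 (SE 0.10, adjusted p 3.56e-04). Of 22 melanocyte markers, 2 were higher and 7 lower, against 2 and 15 without glabridin replicate 2 and 1 and 12 without scaling factors. DCT, an enzyme of melanin synthesis, fell to 5.56 ± 0.842 CPM in glabridin libraries, against 37.6 ± 4.08 CPM in melanosome libraries (adjusted p 3.82e-07), and stood at 0.0711 ± 0.0421 CPM in control libraries. RAB38, a GTPase of melanosome biogenesis, rose by 0.55 ± 0.06 (adjusted p 6.77e-05 by edgeR), but was also present in control libraries, at 44.2 ± 2.74 CPM. GPNMB, the other melanocyte marker called higher, named after its value was seen, had a mean of 144.6 CPM in control libraries. Of 5 fibroblast markers that passed the filter, 0 were higher and 2 lower, with the same counts at an unadjusted p under 0.05 and by DESeq2, and 0 and 1 without glabridin replicate 2 or without replicate 3. DCN, a proteoglycan of connective tissue, fell by 0.94 (SE 0.09, adjusted p 2.35e-05).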
